A study of Rattus norvegicus with 16 samples.

Results

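The genes described here encode the enzymes that break down amino acids, and those of the urea cycle, in the superficial cortex of the rat kidney. A list of 41 gene symbols was matched to the probe annotation of the array, and 39 were found, among 36685 TranscriptClusterIDs (the array's units for a gene). Only TranscriptClusterIDs with a single symbol were matched. None of the 39 had more than 1 of these, so no choice between rows was needed. Gstz1 and Amt were not named as the single symbol of a TranscriptClusterID and were not analysed here. The members fall into 7 classes. There were 18 of branched-chain amino acid breakdown, 7 of proline, arginine and the urea cycle, 3 of aromatic amino acids and 2 of lysine. The others were 2 of glycine and serine, 4 of transamination (Got1, Got2, Gpt and Agxt2), and 3 oxidases of D-amino and 2-hydroxy acids. The aminotransferases Bcat1, Bcat2, Abat and Oat are counted with the pathways they serve.

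Amino acids are broken down in steps that are shared within a class. The branched-chain amino acids leucine, isoleucine and valine lose their amino group to a transaminase (Bcat2 in mitochondria, Bcat1 in the cytosol), their keto acids are decarboxylated by the branched-chain ketoacid dehydrogenase complex, and the acyl-CoA products are dehydrogenated by enzymes of their own before they enter the Krebs cycle or become ketone bodies. Proline is oxidized in mitochondria to glutamate, tyrosine passes through homogentisate to fumarate and acetoacetate, and glycine is split by the glycine cleavage system. The proximal tubule is the main site of these reactions in the kidney. It also makes arginine from citrulline with Ass1 and Asl, the enzymes that the liver uses in the urea cycle, and uses the carbon of amino acids to make glucose.

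The tissue came from 16 male Sprague-Dawley rats, 7 weeks of age by the labels, with 1 array per rat and 4 rats in each group. Rats 13 to 16 (FHS) ate a 4% NaCl chow and drank 20% fructose, rats 9 to 12 (CHS) ate the same chow and drank water, rats 5 to 8 (FNS) ate the 0.6% NaCl chow and drank 20% fructose, and rats 1 to 4 (CNS) ate the 0.6% NaCl chow and drank water, all for 7 days. By the study's methods the chows came from different makers and differed in protein, carbohydrate and energy as well as in NaCl, so salt and the rest of the chow cannot be told apart. Rats were housed in pairs, cages are not in the labels, and every p-value treats the rats as independent.

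Values are log2 levels after robust multi-array averaging (RMA), and a level says nothing of how one gene compares with another, since probes differ in brightness. The correlation between any pair of arrays, across TranscriptClusterIDs, lay between 0.968 and 0.99. The array medians were 5.33 to 5.44 in FHS, 5.25 to 5.34 in CHS, 5.27 to 5.33 in FNS and 5.26 to 5.29 in CNS. For the proximal tubule, all 7 markers of segments S1 and S2 and all 7 of S3 had means above the median of all TranscriptClusterIDs (5.29), as did 38 of the 39 members. The exception was the cytosolic transaminase Bcat1, with group means of 3.96, 4.19, 4.23 and 4.19 in FHS, CHS, FNS and CNS. In whole tissue, fewer cells of a type and less RNA per cell cannot be told apart.

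Averaged over both fluids, 8 of 39 members (20.5%) were higher on the high-salt chow at an adjusted p under 0.05 (limma, Benjamini and Hochberg over all TranscriptClusterIDs), 0 were lower, and 31 did not pass. Over all TranscriptClusterIDs the share called in this comparison was 13.3%, with 6.49% higher and 6.77% lower. Among the TranscriptClusterIDs above the median level, where all 8 lie, the share was 19.2%, with 7.74% higher and 11.5% lower. The total called among the members was therefore near the share above the median level. The 8 calls were all higher. Calls were about evenly split over all TranscriptClusterIDs, and more often lower than higher above the median level. The direction of the members was not tested against these shares, since the members were chosen with earlier results of these data known. The 8 were Ivd, Pccb and Acad8 of the branched-chain class, Prodh and Aldh4a1 of proline oxidation, Gcdh of lysine breakdown, Gldc of glycine cleavage and the D-aspartate oxidase Ddo. Counting the members that did not pass, 29 of 39 differences were above 0, with a median of 0.10 on the log2 scale, beside a median of 0.02 and 54.8% above 0 over all TranscriptClusterIDs.

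Averaged over both chows, 0 of 39 members differed with fructose in limma, 4 had an unadjusted p under 0.05, all 4 below 0, and the analysis of variance (ANOVA) named in the study's methods gave 0 after adjustment and 8 at an unadjusted p under 0.05. The share called over all TranscriptClusterIDs was 0.00273%. Of the 39 differences, 10 were above 0 and 29 below, with a median of −0.04 (0.01 over all TranscriptClusterIDs, of which 53.6% were above 0). The standard errors of the members' differences ran from 0.05 to 0.44, the same range as for chow averaged. An adjusted p also depends on how many TranscriptClusterIDs differ in the comparison. In limma, Abat had an unadjusted p of 0.00191 with fructose (adjusted p = 0.375). Prodh had an unadjusted p of 0.00204 with chow (adjusted p = 0.023). The counts called for fructose and for chow thus do not compare the sizes of the differences, and a difference without a call is not shown to be absent.

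**Figure D1:**
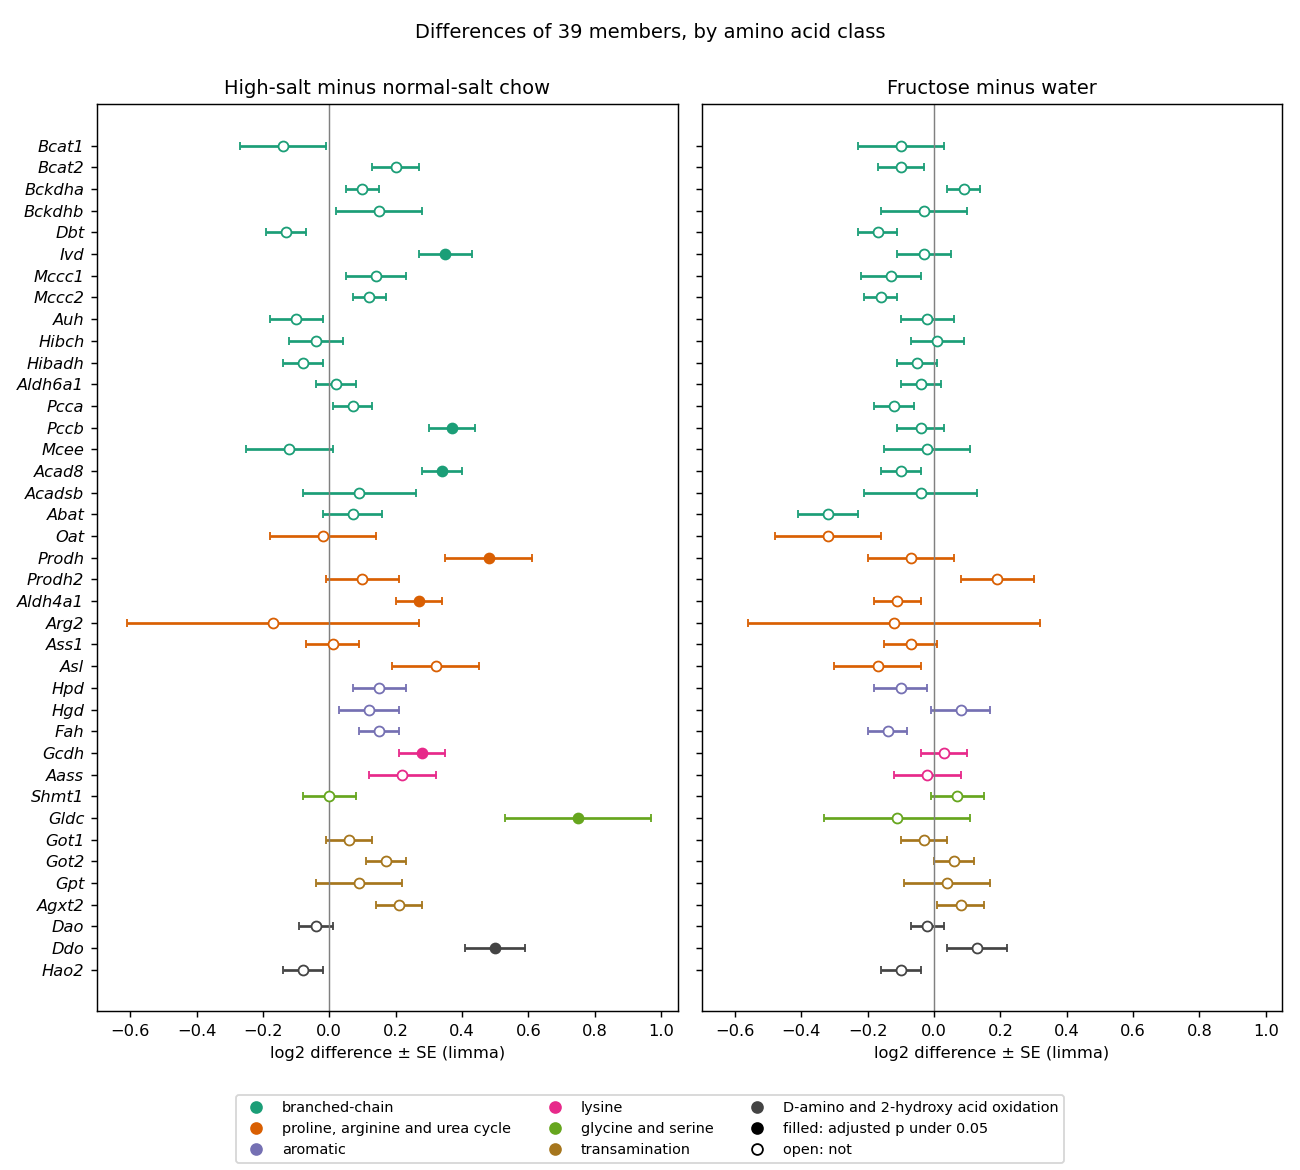
Log2 difference with its standard error for each of the 39 members, in high-salt minus normal-salt chow averaged over both fluids (left) and fructose minus water averaged over both chows (right), coloured by amino acid class. Filled points passed an adjusted p under 0.05 in limma. The 8 filled points all lie right of 0 in the left panel, and the right panel has 0.

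In the branched-chain class, 3 of 18 members were higher on the high-salt chow and 12 of 18 differences were above 0 (median 0.08). The 3 that passed act on acyl-CoA esters below the ketoacid dehydrogenase. Pccb, the beta subunit of propionyl-CoA carboxylase, which takes propionyl-CoA from valine and isoleucine towards succinyl-CoA, had 10.69, 10.67, 10.66 and 10.65 in FHS rats, 10.73, 10.73, 10.77 and 10.72 in CHS rats, 10.33, 10.11, 10.61 and 10.24 in FNS rats, and 10.29, 10.27, 10.40 and 10.41 in CNS rats. Every rat on the high-salt chow was above every rat on the normal-salt chow, which held for 0.954% of all TranscriptClusterIDs in this direction. FNS rat 7, at 10.61, came closest to the high-salt rats. The averaged difference was 0.37 ± 0.07 on the log2 scale (SE, 1.29-fold, limma adjusted p = 0.00228), and the alpha subunit Pcca had a difference of 0.07 ± 0.06 (adjusted p = 0.459).

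Acad8, the isobutyryl-CoA dehydrogenase of valine breakdown, had 9.19, 9.08, 8.96 and 9.16 in FHS rats, 9.25, 9.28, 9.19 and 9.25 in CHS rats, 8.85, 8.72, 8.92 and 8.74 in FNS rats, and 8.88, 8.87, 8.73 and 8.97 in CNS rats. Of the 8 high-salt rats, 7 were above all normal-salt rats, and FHS rat 15 was just under CNS rat 4. The difference was 0.34 ± 0.06 (SE, 1.26-fold, adjusted p = 0.00192). Ivd, the isovaleryl-CoA dehydrogenase of leucine breakdown, had 10.17, 9.86, 10.22 and 10.03 in FHS rats, 10.10, 10.12, 10.18 and 10.10 in CHS rats, 9.80, 9.75, 9.87 and 9.57 in FNS rats, and 9.75, 9.51, 9.90 and 9.86 in CNS rats. FHS rat 14 overlapped the normal-salt rats and the other 7 high-salt rats did not. The difference was 0.35 ± 0.08 (1.27-fold, adjusted p = 0.00739).

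**Figure D2:**
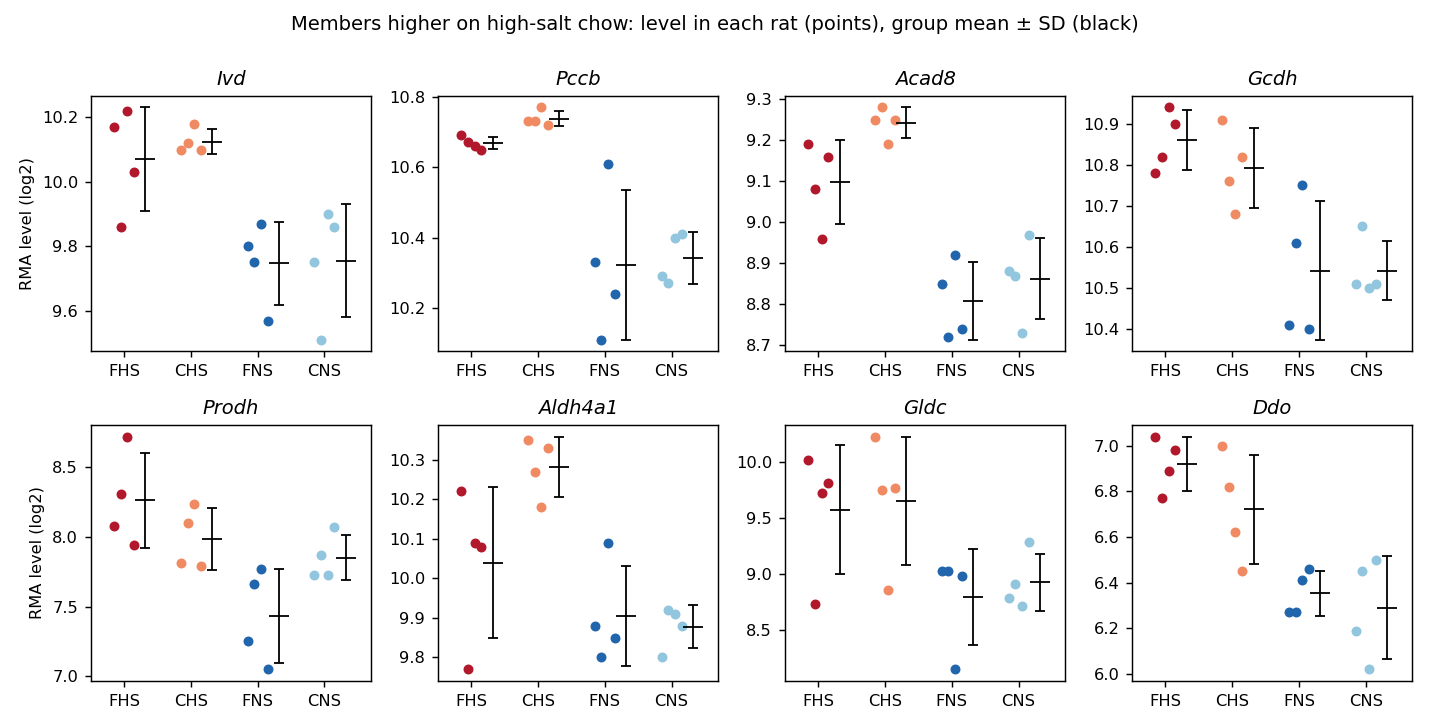
RMA level (log2) in each rat (points) of the 8 members that were higher on the high-salt chow, in FHS, CHS, FNS and CNS, with the mean and SD of the 4 rats in black. The axes are cut to the range of each gene. Only for Pccb did no high-salt rat overlap a normal-salt rat, and Gldc had 1 low rat in FHS (8.73) and 1 in CHS (8.86).

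The other acyl-CoA dehydrogenase of the class, Acadsb, which serves isoleucine, had a difference of 0.09 ± 0.17 (adjusted p = 0.769). The ketoacid dehydrogenase subunits had differences of 0.10 ± 0.05 (Bckdha, adjusted p = 0.221), 0.15 ± 0.13 (Bckdhb, adjusted p = 0.471) and −0.13 ± 0.06 (Dbt, adjusted p = 0.18). Bcat2, the mitochondrial transaminase, had 0.20 ± 0.07 (adjusted p = 0.0876). The remaining members of the leucine and valine branches lay between −0.10 and 0.14, among them both subunits of methylcrotonyl-CoA carboxylase (0.14 for Mccc1, 0.12 for Mccc2). Mcee, the methylmalonyl-CoA epimerase that follows propionyl-CoA carboxylase, had −0.12 ± 0.13 (adjusted p = 0.58). The lowest difference of the class was that of Bcat1 (−0.14 ± 0.13, adjusted p = 0.528).

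Both measured enzymes of lysine breakdown had differences above 0 (median 0.25), and 1 of 2 passed. Gcdh, the glutaryl-CoA dehydrogenase, had 10.78, 10.82, 10.94 and 10.90 in FHS rats, 10.91, 10.76, 10.68 and 10.82 in CHS rats, 10.41, 10.61, 10.75 and 10.40 in FNS rats, and 10.51, 10.65, 10.50 and 10.51 in CNS rats. FNS rat 7 stood within the high-salt range and the other 7 normal-salt rats were below it. The difference was 0.28 ± 0.07 (SE, 1.22-fold, adjusted p = 0.011). Aass, which starts the saccharopine route of lysine, had 11.32, 10.78, 11.29 and 11.44 in FHS rats, 11.32, 11.34, 11.22 and 11.27 in CHS rats, 11.01, 10.97, 11.31 and 10.90 in FNS rats, and 11.06, 10.76, 11.11 and 11.09 in CNS rats. FHS rat 14 was near the lowest of all 16 rats, and the difference of 0.22 ± 0.10 did not pass (adjusted p = 0.144). Of the 16 fits that left out 1 rat it passed in 1, without FHS rat 14, where it was 0.29 (limma adjusted p = 0.0227). It passed in 0 of 6 other settings with an adjusted p.

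In the class of proline, arginine and the urea cycle, 2 of 7 members were higher on the high-salt chow, and they are the consecutive enzymes that take proline to glutamate. Prodh, the proline dehydrogenase of the first step, had 8.08, 8.31, 8.72 and 7.94 in FHS rats, 7.81, 8.10, 8.24 and 7.79 in CHS rats, 7.25, 7.66, 7.77 and 7.05 in FNS rats, and 7.73, 7.87, 7.73 and 8.07 in CNS rats. The FHS rats were all above the FNS rats, while CHS and CNS overlapped. The averaged difference was 0.48 ± 0.13 (SE, 1.4-fold, adjusted p = 0.023). It was 0.83 ± 0.18 in FHS minus FNS (1.78-fold, adjusted p = 0.0191), and 0.14 ± 0.18 in CHS minus CNS (adjusted p = 0.748). The difference between these, which is the interaction of fructose and chow, was 0.69 ± 0.26 and did not pass (limma adjusted p = 0.808).

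Aldh4a1, the pyrroline-5-carboxylate dehydrogenase of the second step, had 10.22, 9.77, 10.09 and 10.08 in FHS rats, 10.35, 10.27, 10.18 and 10.33 in CHS rats, 9.88, 9.80, 10.09 and 9.85 in FNS rats, and 9.80, 9.92, 9.91 and 9.88 in CNS rats. CHS rats were all above CNS rats, and FHS overlapped FNS. The averaged difference was 0.27 ± 0.07 (SE, 1.20-fold, adjusted p = 0.02), with 0.40 ± 0.10 in CHS minus CNS (adjusted p = 0.0386) and 0.13 ± 0.10 in FHS minus FNS (adjusted p = 0.478). With the arrays shifted to the same median the averaged difference was 0.22 and did not pass (adjusted p = 0.0787). Prodh2, the hydroxyproline dehydrogenase, had an averaged difference of 0.10 ± 0.11, and Oat, which links ornithine to the same intermediate, −0.02 ± 0.16. Of the enzymes that make arginine, Asl had 0.32 ± 0.13 (adjusted p = 0.115) and Ass1 0.01 ± 0.08 (adjusted p = 0.936). Arg2, the mitochondrial arginase, varied most between rats and had −0.17 ± 0.44 (adjusted p = 0.844).

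Of the glycine and serine enzymes, Gldc, the decarboxylase of the glycine cleavage system, had the largest averaged difference of all 39 members. Its levels were 10.02, 8.73, 9.73 and 9.82 in FHS rats, 10.23, 9.75, 8.86 and 9.77 in CHS rats, 9.03, 9.03, 8.15 and 8.98 in FNS rats, and 8.79, 8.91, 8.72 and 9.29 in CNS rats. Of the high-salt rats, 6 were above all normal-salt rats, and FHS rat 14 and CHS rat 11 were within the normal-salt range. The difference was 0.75 ± 0.22 (SE, 1.68-fold, adjusted p = 0.0311). The call was lost on leaving out any 1 of 9 rats (1, 3, 7, 9, 10, 12, 13, 15 or 16), with adjusted p up to 0.0631, and in the methods' ANOVA (adjusted p = 0.0591). Without FHS rat 14 the difference was 0.89. Shmt1, the cytosolic serine hydroxymethyltransferase, had 10.63, 10.05, 10.54 and 10.56 in FHS rats, 10.52, 10.41, 10.38 and 10.38 in CHS rats, 10.60, 10.44, 10.37 and 10.54 in FNS rats, and 10.45, 10.17, 10.51 and 10.35 in CNS rats. All 4 groups overlapped. Its smallest unadjusted p was in FNS minus CNS, where the difference was 0.12 ± 0.12.

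**Figure D3:**
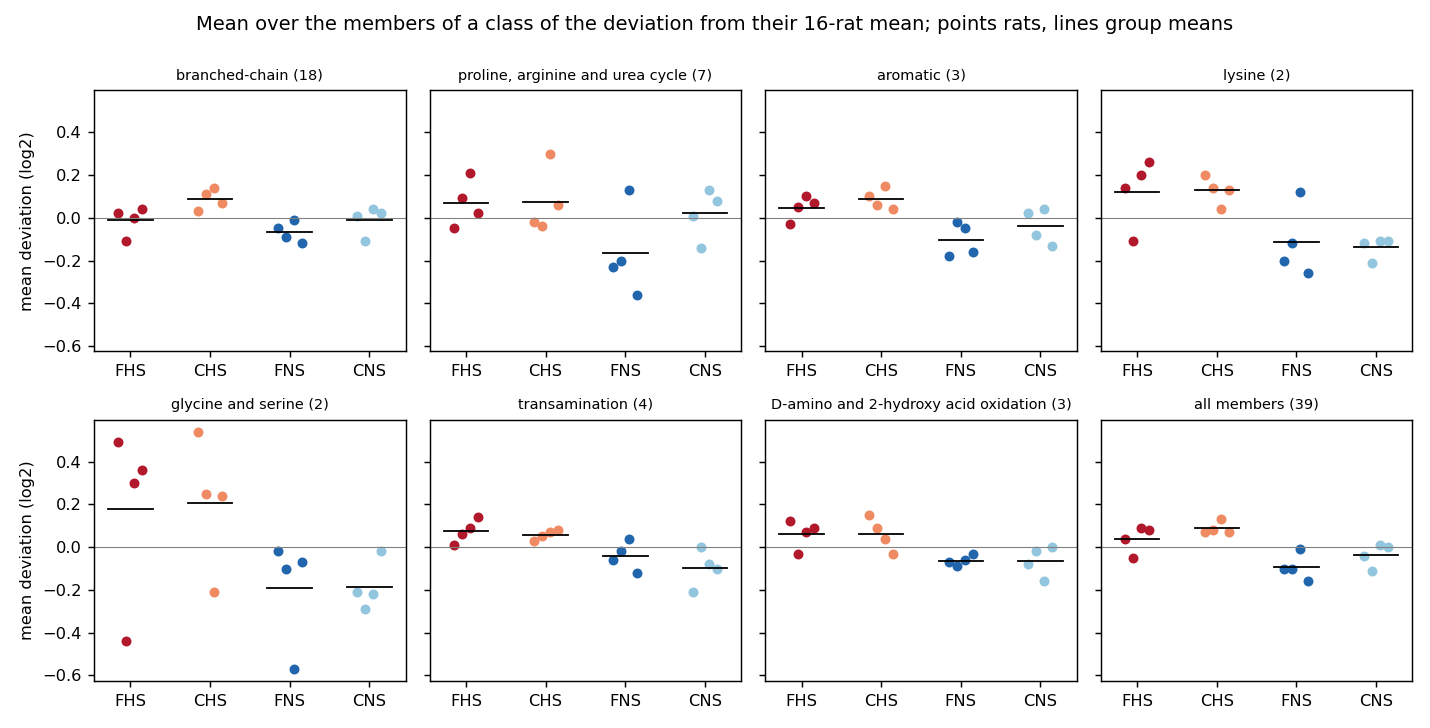
Mean, over the measured members of each class, of the deviation of a rat's log2 level from the gene's mean over 16 rats, for FHS, CHS, FNS and CNS (points, rats; lines, group means; number of members in brackets). Over all 39 members the group means were 0.04, 0.09, −0.09 and −0.04, and FHS rat 14 was the lowest of its group (−0.05).

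The 3 measured aromatic enzymes had differences from 0.12 to 0.15 on the high-salt chow. In limma 0 of 3 passed and 1 had an unadjusted p under 0.05, beside 28% of all TranscriptClusterIDs. In the methods' ANOVA 0 passed after adjustment. Fah, the fumarylacetoacetase that ends tyrosine breakdown, had 10.32, 10.39, 10.49 and 10.38 in FHS rats, 10.57, 10.48, 10.68 and 10.47 in CHS rats, 10.27, 10.33, 10.38 and 10.10 in FNS rats, and 10.40, 10.30, 10.50 and 10.32 in CNS rats. The difference was 0.15 ± 0.06 (limma adjusted p = 0.129). Hpd, the 4-hydroxyphenylpyruvate dioxygenase, had 12.83, 12.52, 12.82 and 12.92 in FHS rats, 12.94, 12.88, 12.69 and 12.86 in CHS rats, 12.54, 12.75, 12.40 and 12.68 in FNS rats, and 12.81, 12.90, 12.62 and 12.55 in CNS rats. For both genes, groups that share a chow or a fluid overlapped, while CHS lay above FNS without overlap for Fah. The difference of Hpd was 0.15 ± 0.08 (limma adjusted p = 0.242).

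All 4 members of the transamination class had differences above 0 on the high-salt chow (median 0.13). In limma 0 passed and 2 had an unadjusted p under 0.05, beside 28% of all TranscriptClusterIDs. In the methods' ANOVA 2 passed after adjustment. Of the aminotransferases in other classes, Bcat2 (0.20) and Abat (0.07) were above 0, and Bcat1 (−0.14) and Oat (−0.02) were below 0. Agxt2, which transfers the amino group of alanine to glyoxylate and also degrades dimethylarginines, had 12.40, 12.23, 12.42 and 12.44 in FHS rats, 12.28, 12.41, 12.30 and 12.35 in CHS rats, 12.09, 12.34, 12.38 and 11.99 in FNS rats, and 11.94, 12.25, 12.08 and 12.06 in CNS rats. CHS did not overlap CNS, and FHS overlapped FNS. The difference was 0.21 ± 0.07 (adjusted p = 0.0633). Got2, the mitochondrial aspartate aminotransferase, had 9.16, 8.97, 8.85 and 8.98 in FHS rats, 8.96, 8.94, 8.86 and 9.02 in CHS rats, 8.74, 8.83, 8.95 and 8.81 in FNS rats, and 8.73, 8.86, 8.83 and 8.62 in CNS rats. The difference was 0.17 ± 0.06 (adjusted p = 0.0817). Agxt2 and Got2 are the members that passed in the methods' ANOVA.

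Of the 3 peroxisomal oxidases, Ddo was higher on the high-salt chow, and Dao and Hao2 had differences of −0.04 ± 0.05 and −0.08 ± 0.06. Ddo, which oxidizes D-aspartate, had 7.04, 6.77, 6.89 and 6.98 in FHS rats, 7.00, 6.82, 6.62 and 6.45 in CHS rats, 6.27, 6.27, 6.41 and 6.46 in FNS rats, and 6.19, 6.45, 6.02 and 6.50 in CNS rats. Only CHS rat 12 was within the normal-salt range. The averaged difference was 0.50 ± 0.09 (SE, 1.41-fold, adjusted p = 0.00243), with 0.57 ± 0.13 in FHS minus FNS (adjusted p = 0.0219). Hao2, a 2-hydroxy acid oxidase, had 13.03, 12.95, 13.10 and 13.10 in FHS rats, 13.17, 13.11, 13.25 and 13.14 in CHS rats, 13.24, 13.14, 13.06 and 13.15 in FNS rats, and 13.27, 13.10, 13.26 and 13.27 in CNS rats. FHS lay below CHS without overlap, and FNS overlapped CNS. Its averaged difference with fructose was −0.10 ± 0.06 (adjusted p = 0.74).

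Taken 1 fluid at a time, 3 of 39 members were higher in CHS than in CNS (3.29% of all TranscriptClusterIDs called, 1.32% higher), namely Pccb (0.40), Acad8 (0.38) and Aldh4a1 (0.40). In FHS against FNS, 3 were higher as well (5.36% called, 2.73% higher), namely Pccb (0.35), Prodh (0.83) and Ddo (0.57). Without overlap, 9 of 39 members lay higher in CHS than in CNS, beside 5.48% of all TranscriptClusterIDs (and 0 members lower, beside 6.19%), and 7 lay higher in FHS than in FNS, beside 7.16%, with 1, Hibadh, lower (6.12%). The calls within a fluid moved with the setting. In FHS minus FNS the number of members called was 8 after quantile normalization, 7 with the filter on level, 7 with the intensity trend, 6 among TranscriptClusterIDs with 1 symbol, 1 with shifted arrays, 1 with the arrays of the comparison alone and 0 in the methods' ANOVA after adjustment. In CHS minus CNS it was 5 with the filter, 1 with shifted arrays and 0 with the arrays of the comparison alone. Pccb passed in FHS minus FNS at an adjusted p of 0.0468, and in only 2 of the 16 fits that left out 1 rat, without rat 2 or without rat 7. Prodh lost its call in FHS minus FNS without rat 5, 8 or 15, and Ddo without rat 5, 6 or 13. In CHS minus CNS, Acad8 lost it without rat 1, 3, 10 or 12, Pccb without any 1 of rats 1 to 4 or 9 to 12, and Aldh4a1 without any 1 of 10 rats. An effect of chow past the threshold with one fluid and not the other was not shown to differ between the fluids, since 0 members passed for the interaction.

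The starts of the genes that rose together can be set side by side. The promoter tables of RefSeq (build GRCr8) held 33 of the 39 members and 7 of the 8 that rose, Prodh being without an entry. The CCAAT box, a common promoter element bound by NF-Y, was searched as CCAAT on both strands in the 250 bases before the start, a motif chosen after the values were seen. It was in 4 of these 7 promoters, in 17 of the 33, and in 34% of 33469 rat promoters of the same length. The amino acid response element bound by ATF4, searched as TGATGNAA on both strands, was in 0 of the 7, 1 of the 33 and 3.4% of all. A match describes the letters only. The promoters with a CCAAT are shown 5′ to 3′ because they are those of called members that hold the box, with CCAAT, or ATTGG where the box is on the other strand, in capitals. They lie at chr3:126305334-126305583 (plus strand) for Ivd, chr19:40167813-40168062 (plus strand) for Gcdh, chr1:237375605-237375854 (minus strand) for Gldc and chr20:45673327-45673576 (plus strand) for Ddo. In Ivd the box occurs 3 times, each on the other strand, with first letters 158, 73 and 49 bases before the start. In Ddo it occurs 2 times, at 101 and 61 bases, in Gldc 2 times, at 224 and 77, and in Gcdh 1 time, at 110.
Ivd: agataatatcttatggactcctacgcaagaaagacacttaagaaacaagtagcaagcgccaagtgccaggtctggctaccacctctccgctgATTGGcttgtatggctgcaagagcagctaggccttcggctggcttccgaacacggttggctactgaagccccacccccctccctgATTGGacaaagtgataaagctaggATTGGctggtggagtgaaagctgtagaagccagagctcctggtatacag
Gcdh: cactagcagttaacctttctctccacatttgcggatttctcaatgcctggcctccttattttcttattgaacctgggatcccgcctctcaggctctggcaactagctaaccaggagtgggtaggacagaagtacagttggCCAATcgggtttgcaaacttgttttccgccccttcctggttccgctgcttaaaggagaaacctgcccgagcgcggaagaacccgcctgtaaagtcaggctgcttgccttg
Gldc: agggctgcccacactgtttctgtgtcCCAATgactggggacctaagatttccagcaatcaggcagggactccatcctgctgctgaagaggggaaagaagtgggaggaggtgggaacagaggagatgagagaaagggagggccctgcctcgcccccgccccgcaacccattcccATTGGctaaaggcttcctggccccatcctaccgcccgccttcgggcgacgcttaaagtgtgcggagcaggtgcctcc
Ddo: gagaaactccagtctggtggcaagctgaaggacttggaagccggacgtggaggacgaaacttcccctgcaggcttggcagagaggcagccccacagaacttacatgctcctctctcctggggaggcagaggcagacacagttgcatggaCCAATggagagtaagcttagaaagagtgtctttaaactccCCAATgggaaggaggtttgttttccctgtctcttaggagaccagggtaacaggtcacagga

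With fructose on the 0.6% NaCl chow, 0 of 39 members passed in FNS minus CNS (0% of all TranscriptClusterIDs called). At an unadjusted p under 0.05 there were 2 in limma, beside 4.15% of all TranscriptClusterIDs. The methods' ANOVA gave 2 unadjusted and 0 after adjustment. These 2 in limma were Prodh (−0.41 ± 0.18) and Bcat2 (−0.26 ± 0.10), both with an adjusted p of 1. With fructose on the 4% NaCl chow, 0 of 39 passed in FHS minus CHS (0.00273% called). At an unadjusted p under 0.05 there were 4 in limma, beside 9.62% of all TranscriptClusterIDs. The methods' ANOVA gave 9 unadjusted and 0 after adjustment. The 4 in limma were Abat, Mccc2 and Aldh4a1 below 0 and Bckdha above 0. FHS rats lay without overlap below CHS rats for 6 members (Dbt, Mccc2, Pcca, Pccb, Abat and Hao2), beside 2.13% of all TranscriptClusterIDs, and above them for 1 (Bckdha), beside 2.99%. The members had a median of −0.08 in FHS minus CHS and 0.00 in FNS minus CNS, beside 0.03 and 0.00 over all TranscriptClusterIDs. FNS and FHS are each set against their own water group, and the values of both comparisons enter the averaged difference.

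The member with the smallest p for fructose averaged was Abat, the 4-aminobutyrate aminotransferase, which also takes an intermediate of valine breakdown. It is described with Mccc2, Bcat2 and Bckdha for its values, after they were seen. Abat had 10.09, 9.41, 10 and 9.87 in FHS rats against 10.25, 10.27, 10.14 and 10.26 in CHS rats, and 9.86, 9.98, 9.72 and 9.82 in FNS rats against 10.08, 10.06, 10.19 and 10.05 in CNS rats. Fructose rats lay below water rats without overlap on both chows, which was so in this direction for 2.13% of all TranscriptClusterIDs in FHS against CHS and 1.62% in FNS against CNS. FHS rat 14 was the lowest of all. The averaged difference was −0.32 ± 0.09 (limma adjusted p = 0.375), and −0.25 without FHS rat 14 (adjusted p from 0.271 to 0.538 on leaving out each rat).

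**Figure D4:**
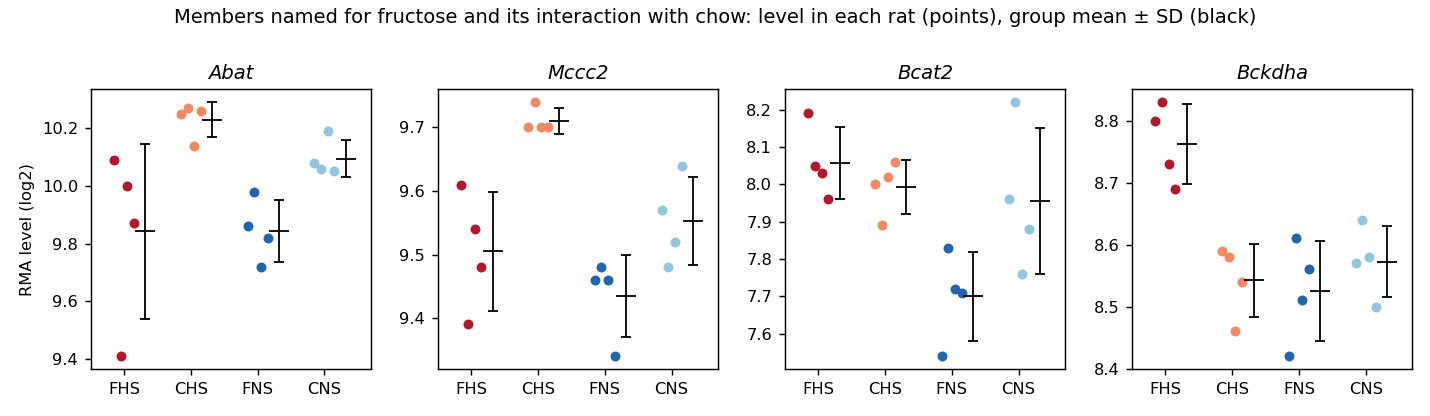
RMA level (log2) in each rat (points) of Abat, Mccc2, Bcat2 and Bckdha in FHS, CHS, FNS and CNS, with the mean and SD of the 4 rats in black; axes are cut to each gene's range. Abat in fructose rats lies below Abat in water rats on each chow, and Bckdha in FHS (8.69 to 8.83) lies above the other 3 groups. None of these differences with fructose passed an adjusted p under 0.05.

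Mccc2, a subunit of the methylcrotonyl-CoA carboxylase of leucine breakdown, had 9.61, 9.39, 9.54 and 9.48 in FHS rats against 9.70, 9.74, 9.70 and 9.70 in CHS rats, and 9.46, 9.48, 9.46 and 9.34 in FNS rats against 9.57, 9.48, 9.52 and 9.64 in CNS rats. FHS and CHS did not overlap, FNS and CNS met at 9.48, and the averaged difference was −0.16 ± 0.05 (limma adjusted p = 0.514). The other members with an unadjusted p under 0.05 for fructose averaged were Dbt (−0.17 ± 0.06) and Fah (−0.14 ± 0.06). Oat, the ornithine aminotransferase, had a difference as large as that of Abat with a wider error, −0.32 ± 0.16 averaged over both chows (adjusted p = 0.69), with −0.18 ± 0.22 in FHS minus CHS and −0.46 ± 0.22 in FNS minus CNS, and fructose and water rats overlapped on both chows. By class, 16 of 18 branched-chain members and 6 of 7 of proline, arginine and the urea cycle had a difference below 0 with fructose, with medians of −0.04 and −0.11. Below 0 were also 2 of 3 aromatic enzymes (median −0.10), 1 of 2 of lysine (0.01), 1 of 2 of glycine and serine (−0.02) and 2 of 3 oxidases (−0.02). Of the transamination class, 3 of 4 were above 0 (0.05). The aminotransferases of other classes were below 0, with −0.32 for Abat and Oat and −0.10 for Bcat1 and Bcat2. With the arrays shifted to the same median, 7 of 39 members were above 0 in place of 10.

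For the interaction of fructose and chow, 0 of 39 members passed in limma (0% of all TranscriptClusterIDs called). At an unadjusted p under 0.05 there were 3, beside 6.09% of all TranscriptClusterIDs. The methods' ANOVA gave 0 after adjustment and 4 unadjusted. The 3 in limma were Prodh, Bcat2 (0.32 ± 0.15) and Bckdha (0.26 ± 0.11), each above 0, with adjusted p from 0.808 to 0.816. Over the 39 members the interaction was above 0 for 13 and below 0 for 26 (median −0.05), beside 55.3% above 0 over all TranscriptClusterIDs (median 0.03). In the branched-chain class 15 of 18 were below 0. Bckdha, the E1 alpha subunit of the ketoacid dehydrogenase, had 8.80, 8.83, 8.73 and 8.69 in FHS rats against 8.59, 8.58, 8.46 and 8.54 in CHS rats, and 8.42, 8.61, 8.51 and 8.56 in FNS rats against 8.57, 8.64, 8.58 and 8.50 in CNS rats. All FHS rats were above every other rat. Bcat2 had 8.19, 8.05, 8.03 and 7.96 in FHS rats against 8.00, 7.89, 8.02 and 8.06 in CHS rats, and 7.54, 7.83, 7.72 and 7.71 in FNS rats against 7.96, 8.22, 7.76 and 7.88 in CNS rats. FNS rats were below all FHS rats and overlapped CNS rats.

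Of 51 further genes of the same pathways, 42 were found. On the high-salt chow averaged over both fluids, 2 of 42 were higher and 1 lower, beside 6.49% and 6.77% of all TranscriptClusterIDs. Above the median level, where 33 of the 42 lie, the shares were 7.74% higher and 11.5% lower. In limma, calls were thus no more frequent among these genes than in the background. For chow averaged, 5 of 42 passed in the methods' ANOVA after adjustment. With fructose averaged, 0 passed in limma, and 5 had an unadjusted p under 0.05, beside 7.44% of all TranscriptClusterIDs. In the methods' ANOVA 0 passed after adjustment. Bckdk, the kinase that inactivates the branched-chain ketoacid dehydrogenase, had 10.22, 10.42, 10.21 and 10.03 in FHS rats, 10.10, 9.90, 10.20 and 9.92 in CHS rats, 9.93, 9.90, 10.31 and 9.98 in FNS rats, and 9.66, 9.65, 9.82 and 9.73 in CNS rats. CNS rats were below all other rats, and the difference with chow was 0.25 ± 0.08 (adjusted p = 0.0452). With fructose it was 0.26 ± 0.08 and did not pass (limma adjusted p = 0.48). Aldh7a1, the aminoadipate semialdehyde dehydrogenase of lysine breakdown, had a difference with chow of 0.24 ± 0.06 (adjusted p = 0.0219), with group means of 11.66 in FHS, 11.78 in CHS, 11.50 in FNS and 11.46 in CNS. Psph, the phosphatase of the last step of serine synthesis, was lower on the high-salt chow, with 8.85, 7.92, 8.70 and 8.74 in FHS rats, 9.34, 9.28, 9.20 and 8.96 in CHS rats, 9.52, 9.22, 9.37 and 9.74 in FNS rats, and 9.46, 9.94, 9.49 and 9.16 in CNS rats. FHS did not overlap FNS or CHS. The averaged difference was −0.61 ± 0.14 (adjusted p = 0.00988), and it was −0.91 ± 0.20 in FHS minus FNS (adjusted p = 0.0176).

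Markers of other cells moved with the chow beside these enzymes. Of 5 markers of collecting duct principal cells, 2 were higher on the high-salt chow (Aqp2 and Scnn1g, median 0.35), and the mean level of the list was 8.80 to 9 in FHS, 8.65 to 8.86 in CHS, 8.22 to 8.51 in FNS and 8.48 to 8.67 in CNS. Of 5 markers of intercalated cells, 2 were lower (Atp6v1g3 and Foxi1, median −0.29), and the list was 8.30 to 8.60 in FHS, 8.59 to 8.65 in CHS, 8.49 to 8.99 in FNS and 8.73 to 8.98 in CNS. Of the markers of the proximal tubule, 0 of 7 passed for S1 and S2 in limma, with 0 at an unadjusted p under 0.05 and 0 in the methods' ANOVA after adjustment (median 0.05), and 1 of 7 was lower for S3 (Slc5a1, median −0.06). The S1 and S2 list was 11.95 to 12.58 in FHS, 12.26 to 12.54 in CHS, 12.38 to 12.47 in FNS and 12.24 to 12.34 in CNS. The S3 list was 9.17 to 10.19 in FHS, 9.22 to 10.04 in CHS, 9.29 to 10.27 in FNS and 9.19 to 10.11 in CNS. It thus varied widely between rats on the same diet, and its part in the spread of the members was not tested. Of the other lists, podocyte markers were 8.11 to 8.32 in FHS, 7.92 to 8.19 in CHS, 8.21 to 8.42 in FNS and 8.24 to 8.60 in CNS, with 1 of 3 lower (Wt1, −0.41, adjusted p = 0.0025). Medulla markers were 6.35 to 6.63 in FHS, 6.57 to 6.75 in CHS, 6.30 to 6.36 in FNS and 6.33 to 6.50 in CNS, so that CHS did not overlap CNS in either list, and 0 of 3 medulla markers passed in limma, with 0 at an unadjusted p under 0.05 and 0 in the methods' ANOVA after adjustment. Of 6 markers of macrophages and antigen-presenting cells 1 was higher (C1qa, 0.51, adjusted p = 0.011) and 1 lower (Cx3cr1, −0.49, adjusted p = 0.00025), of 5 of the thick ascending limb 1 was lower (Kcnj1, −0.38, adjusted p = 0.0178), and of 4 of fibroblasts and smooth muscle 1 was higher (Col3a1, 0.27, adjusted p = 0.0356). Of 5 markers of the distal convoluted and connecting tubule and 3 of endothelium, 0 passed in limma, with 0 at an unadjusted p under 0.05 and 0 in the methods' ANOVA after adjustment. The part of cell composition in the differences of the enzymes was not tested.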

How the data were processed

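Total RNA of superficial renal cortex was hybridized to Affymetrix RaGene-2_0-st arrays, 1 per rat. The authors normalized and summarized the image files with Affymetrix Expression Console by RMA, with median polish, and the deposited values are log2 levels per TranscriptClusterID (1.76 to 13.8). The number of arrays limits the precision. No filter on level was applied. Symbols came from the probe table of the platform: 18511 TranscriptClusterIDs had 1 symbol, 575 several and 17599 none. Groups came from the labels, and 0 columns were left unmapped.

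In limma 3.58.1 (R 4.3.3), a mean per group was fitted over all 16 arrays, with empirical Bayes moderation and 7 contrasts: fructose on each chow and averaged, high-salt chow with each fluid and averaged, and their interaction. P-values are two-sided and were adjusted by Benjamini and Hochberg over 36685 TranscriptClusterIDs, and a call is an adjusted p under 0.05. The fit was run on simulated data with independent noise for each gene. Correlation between genes and effects of cage were not simulated, so no conclusion about the members is drawn from it. The methods' ANOVA, which is unmoderated, was run on the groups of each contrast. The study reports it for fructose on each diet alone. For the averaged contrasts and the interaction, an unmoderated fit of the same kind over 4 groups was used here. Alternatives were a filter at the median mean, quantile normalization, arrays shifted to the same median, an intensity trend, 1-symbol TranscriptClusterIDs, the arrays of a contrast alone, and each rat left out. Members, classes, marker and pathway lists were chosen with earlier results of these data known. Values of every rat are given for members called in any contrast and for the 2 of each class with the smallest moderated F p. Of the further pathway genes, those called are named. Figures were drawn with matplotlib.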

Additional observations from a re-analysis of the deposited data

Results flagged for a closer look

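Among 60 groups of 4 rats (15 members in 4 groups), 5 held a rat set apart from the other 3 by Dixon's criterion (critical value 0.829), which chance alone flags in about 1 of 20 groups. Gcdh was 10.65 in CNS rat 2, above the 10.50 to 10.51 of the other CNS rats. Aass was 10.76 in the same rat, below 11.06 to 11.11, and Hao2 was 13.10 there, below 13.26 to 13.27. Gldc was 8.15 in FNS rat 7, below the 8.98 to 9.03 of the other FNS rats. Shmt1 was 10.05 in FHS rat 14, below 10.54 to 10.63. Without CNS rat 2, 11 members were higher on the high-salt chow, and without FHS rat 14 also 11, each time including the 8 reported.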

How the results depend on the processing

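The count of 8 members higher on the high-salt chow, averaged over both fluids, was 7 to 11 in every alternative with an adjusted p and on leaving out each rat. All of the 8 but Gldc passed on leaving out each rat, and all but Aldh4a1 with the arrays shifted to the same median. Members above 0 for chow numbered 29, against 32 after quantile normalization and 26 with shifted arrays. No called difference changed sign. The methods' ANOVA at an unadjusted p under 0.05 gave 1887 TranscriptClusterIDs and 2 members in FNS minus CNS, 2828 and 9 in FHS minus CHS, 2778 and 8 for fructose averaged, 6148 and 13 in CHS minus CNS, 6852 and 10 in FHS minus FNS, 10102 (5381 higher, 4721 lower) and 18 for chow averaged, and 2234 and 4 for the interaction. After adjustment it gave 0 TranscriptClusterIDs in FHS minus CHS, 0 for fructose averaged, 400 in CHS minus CNS, and 214 with 0 members in FHS minus FNS, where limma called 1968 and 3. In FHS minus CHS, 22 TranscriptClusterIDs passed under the filter on level, 3 with the trend, 23 among those with 1 symbol and 0 with the arrays of the comparison alone. For fructose averaged, 0 passed with shifted arrays and 0 among those with 1 symbol, and 3173 for chow (1402 higher) with 1 symbol. With the arrays of the comparison alone, 533 TranscriptClusterIDs and 0 members passed in CHS minus CNS, and 733 and 1 in FHS minus FNS. Members called in CHS minus CNS were 5 under the filter and 1 with shifted arrays. In FHS minus FNS they were 7 under the filter, 8 after quantile normalization, 1 with shifted arrays, 7 with the trend and 6 with 1 symbol. The mean in place of the median was 0.13 for the oxidases with chow. Where other settings moved a count, the cause was not tested.

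On leaving out each rat, TranscriptClusterIDs called were 0 to 0 in FNS minus CNS, 0 to 4 in FHS minus CHS, 0 to 4 for fructose averaged, 562 to 1468 in CHS minus CNS, 868 to 2186 in FHS minus FNS, 3854 to 5111 for chow (1889 to 2530 higher, 1951 to 2581 lower) and 0 to 1 for the interaction. Members called were 0 to 4 in CHS minus CNS, lowest without rat 1, 0 to 4 in FHS minus FNS, lowest without rat 5, and 0 to 0 for fructose and the interaction. No paired analysis was possible because rat numbers 1 to 16 are not shared between groups. The mean over several TranscriptClusterIDs of a gene was not run, since no member had over 1 with its symbol alone.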

Other observations

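The members were also grouped by where the protein works and by cofactor, after their values were seen and so without a test. Of 27 mitochondrial members, 7 were higher on the high-salt chow (median 0.12 on the log2 scale, averaged over both fluids). The share higher in this comparison was 6.49% over all TranscriptClusterIDs and 7.74% among those above the median level. Of 9 cytosolic members 0 passed in limma (median 0.09), and 0 passed in the methods' ANOVA after adjustment. Asl and Fah had an unadjusted p under 0.05 in limma, as had 28% of all TranscriptClusterIDs. Of 3 peroxisomal members 1 was higher (median −0.04). Enzymes that carry the flavin cofactor FAD made up 5 of the 8 that were higher: Ivd, Acad8, Gcdh, Prodh and Ddo. Among the 8 FAD enzymes of the member list, 7 had a difference above 0 (median 0.31, from −0.04 for Dao to 0.50 for Ddo). Of the 31 other members 3 were higher (median 0.09). With fructose the medians of the FAD enzymes and of the other members were −0.03 and −0.07. FAD enzymes among the further pathway genes were left out of this grouping. With chow, Dld had −0.24, Maoa −0.05, Pipox 0.02, Sardh 0.17 and Dmgdh 0.22, each without an adjusted p under 0.05 in limma.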
